A study of Mus musculus with 2 samples.

Results

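The genes of the proteasome were followed in mouse embryonic stem cells, as all probe sets that the platform annotation gives a single symbol made of Psma, Psmb, Psmc, Psmd, Psme, Psmf or Psmg and a number, leaving out Psmb8 and Psmb9. This rule uses names only and gave 97 probe sets for 45 genes, of 18193 genes named on the array. Messenger RNA of E14 cells, an established mouse embryonic stem cell line, was hybridised to 2 Affymetrix 3' expression arrays, 1 per group. The Mll2 shRNA group carried a lentiviral short hairpin RNA (shRNA) directed at Mll2, a histone H3 lysine 4 methyltransferase, and the control shRNA group a lentiviral control hairpin. Infection lasted 24 h and puromycin selection 5 days, and the protocol text is the same for both groups. Both groups therefore share the line, the viral infection and the selection. The sources used here give neither the hairpin sequences nor whether the infected cells were pooled or cloned. With 1 array per group there was no replicate, so no test between the groups was possible, no p-value is given, and every difference below describes these 2 arrays.

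The proteasome degrades proteins that carry ubiquitin chains. Its core particle is a barrel of outer alpha rings, which gate the entrance, and inner beta rings, which hold the proteolytic sites. A regulatory particle sits on the barrel: its base contains a ring of ATPases that unfold substrates, and its lid contains the deubiquitinase that removes ubiquitin chains. Dedicated assembly factors build the core and the base, and other activators can replace the regulatory particle. Human embryonic stem cells are known for high proteasome activity, and in mammals proteasome genes are usually transcribed together, in part under the transcription factor Nfe2l1.

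The values are MAS5 signals, deposited on the log2 scale. Values below a floor of 6.02 on the log2 scale, a signal of 64.7 and the median of all values, were raised to it, and a gene was counted as measured when at least 1 array read it above this floor. Each gene was represented by its measured probe set with the highest mean, and ratios are log2 differences, the Mll2 shRNA array minus the control. The array medians were 6.01 and 6.02. Of the 97 member probe sets 83 lay above the floor on both arrays, 3 on 1 array and 11 on neither. Of the 45 genes 44 were measured, all on both arrays. The exception was Psmb11, the beta subunit of the thymus proteasome, whose only probe set read 15.4 with the Mll2 shRNA and 35.1 in the control, both under the floor.

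As a check of the labels, Kmt2d, 1 of 2 mouse genes that have been called Mll2, read 335 under the Mll2 shRNA and 736 under the control shRNA. The other, Kmt2b, read 852 and 901. All 9 markers of embryonic stem cells that were examined lay above the floor on both arrays, with summed signals of 81705 and 88774. Ratios were -0.90 for Lin28a, -0.44 for Pou5f1, -0.41 for Utf1, -0.37 for Tdgf1 and -0.22 for Dppa5a. They were 0.07 for Sox2, 0.21 for Zfp42, 0.47 for Nanog and 0.53 for Esrrb, so the markers differed in direction. The second Esrrb probe set above the floor on both arrays went the other way, at -0.22. The part of these differences in any proteasome value was not tested. Of 8 fibroblast markers 4 were measured, with summed signals of 652 and 622, and of 8 blood and immune markers 3 were measured, with summed signals of 2112 and 1603. No probe set of these markers was listed at 0 on both arrays, and Laptm5 made up most of the immune sum with 1862 and 1322. The part of other cells was not tested either.

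Transcripts of the proteasome differed little between the arrays. None of the 44 measured members was at least 2-fold higher or lower, where 2.45% of all 11805 measured genes were, 1.47% higher and 0.983% lower. With so few genes past 2-fold anywhere, a count of 0 in 44 is close to that background. At a threshold of 1.5-fold only Psma8, the germline form of an alpha subunit, was counted among the members, against 12.1% of all measured genes, with 7.4% higher and 4.68% lower. The members' ratios had a median of -0.05 and a robust SD (the scaled median absolute deviation) of 0.13. Over all measured genes the median was 0.03 and the robust SD 0.32.

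Most members are bright, and bright probe sets vary less between arrays. The ratios were therefore also set beside those of 1904 other genes in the middle level range of the members, from 11.1 to 13.3 on the log2 scale, a reference chosen after the values were seen. The members themselves ran from 9.07 to 14.1, so this set of 1904 genes holds no reference at the level of those outside the middle range. The 1904 genes had a median ratio of -0.02 and a robust SD of 0.22. Of them 3.26% were at least 1.5-fold and 0.735% at least 2-fold apart. Each ratio was also compared with the spread at its level, which is the robust SD of the 500 genes nearest in mean. The ratio was smaller than this spread in 37 of 44 members, or 84.1%, where 66.6% of all measured genes were. This spread contains real differences as well as noise and does not cover variation between cultures.

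**Figure D1:**
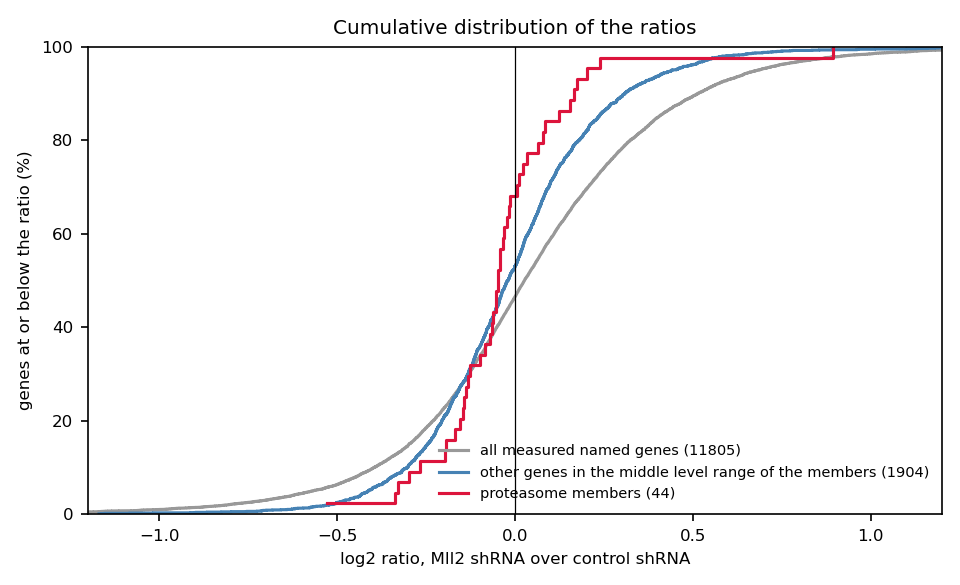
Cumulative share of genes (vertical axis, percent) against the log2 ratio of Mll2 shRNA over control shRNA (horizontal axis) for the 44 measured proteasome members, 1904 other genes in their middle level range, and all 11805 measured genes. The members' curve is the steepest around 0, and the single step far to the right is Psma8 at 0.89.

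As deposited, 30 members had a ratio below 0 and 14 above. Below 0 were 46.5% of all measured genes and 53% of the other genes in the members' middle level range. This excess below 0 depended on how the arrays were scaled. The split was 30 below and 14 above after median centring, 19 and 25 after quantile normalization, 20 and 24 after loess, and 14 and 30 when the arrays were scaled on the bacterial spike-in controls. The members' median moved between -0.05 as deposited and 0.07 with spike-in scaling, which raised the median of all measured genes from 0.03 to 0.14. Relative to the other genes in their middle level range, the members' median lay at -0.03 as deposited, after centring and with spike-in scaling. It lay at 0.0007 after quantile normalization and 0.007 after loess. No direction for the proteasome as a whole was therefore common to these scalings.

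**Figure D2:**
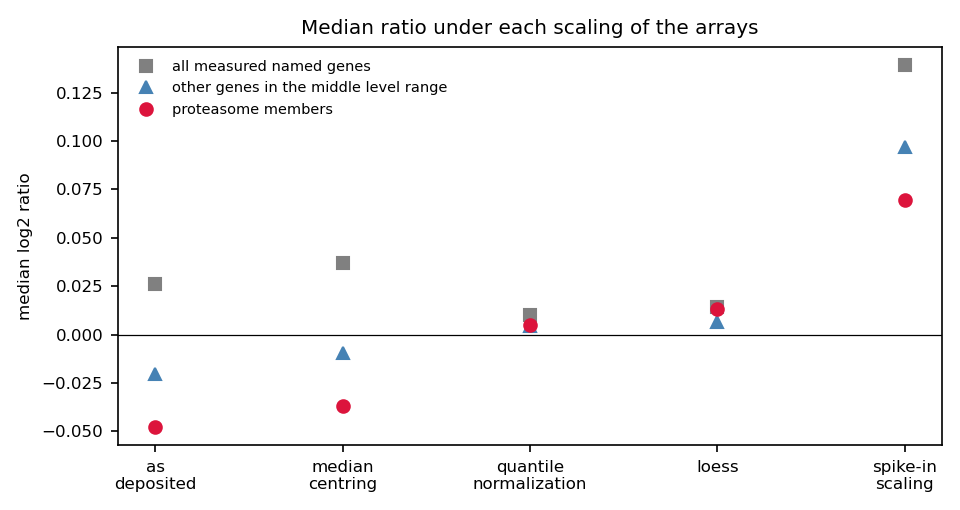
Median log2 ratio (vertical axis) of the proteasome members, of other genes in their middle level range and of all measured genes, under 5 scalings of the arrays (horizontal axis). The members' median runs from -0.05 as deposited to 0.07 with spike-in scaling, and that of the genes in the middle level range moves along with it. The median of all measured genes instead falls from 0.03 as deposited to 0.01 after quantile normalization and after loess, and rises to 0.14 with spike-in scaling.

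The alpha ring was represented by 8 genes. The 7 subunits of the constitutive ring, Psma1 to Psma7, had ratios between -0.15 and 0.09, the lowest in Psma2, which read 11230.5 with the Mll2 shRNA and 12427 in the control. Psma7, the constitutive alpha4 subunit, read 8813 and 8306, a ratio of 0.09, and its second probe set gave 0.08. Psma6 read 16758 and 17584, a ratio of -0.07. Its 3 other probe sets gave -0.05, 0.36 and -0.27, the last 2 from dim signals of 527 and 411 and of 88.2 and 107, so they differed in direction.

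Psma8 stood apart from the other alpha subunits. It is the germline paralogue that takes the place of Psma7 in the proteasome of mouse spermatocytes. Its only probe set, 1427170_at, read 935 with the Mll2 shRNA and 504 in the control, both well above the floor of 64.7. The ratio was 0.89, or 1.86-fold, 2.81 times the spread of 0.32 at its level, and only 5 of its 500 nearest neighbours in level had a higher one. Psma8 had the highest ratio of the 44 measured members, so this rank is that of an extreme picked from them. The ratio ran from 0.81 with the floor value as a pseudocount to 1.01 with spike-in scaling, which reached 2-fold. Other floors and probe set averaging left it at 0.89, so they are no check of it. The ratio of Psma7 was 0.09. No second probe set was there to check Psma8, and whether probes shared with Psma7 contribute was not tested.

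Among the beta subunits, the proteolytic ones were examined first. Psmb5, the chymotrypsin-like subunit, read 8215 with the Mll2 shRNA and 8388 in the control, a ratio of -0.03. Psmb6, the caspase-like subunit, read 8723 and 9528, a ratio of -0.13. Psmb7, the trypsin-like subunit, read 2002 and 2295, a ratio of -0.20. All 3 were slightly lower in the Mll2 shRNA array as deposited and within the spread at their level, which was 0.19, 0.19 and 0.30. Psmb5 turned to 0.09 with spike-in scaling, while Psmb6 stayed at -0.01 and Psmb7 at -0.08. Each of these genes has a single probe set here.

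The 4 structural beta subunits were within their spread as well. Psmb1 had the lowest ratio, -0.17, with signals of 9302 and 10446, and its dimmer probe sets gave 0.19 and -0.21. Psmb4 had the highest, 0.03, with 15377 and 15034, and -0.06 in its second probe set. Psmb10, the interferon-inducible subunit that replaces Psmb7 in the immunoproteasome, read 734 and 762, a ratio of -0.05. The other immunoproteasome subunits are no members and were dim: Psmb8 read 88.8 and 155, a ratio of -0.81 with a spread of 0.46 at its level, and Psmb9 read 133 and 143, a ratio of -0.11. The Psmb8 signals are close to the floor, and its second probe set lay below the floor on both arrays.

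**Figure D3:**
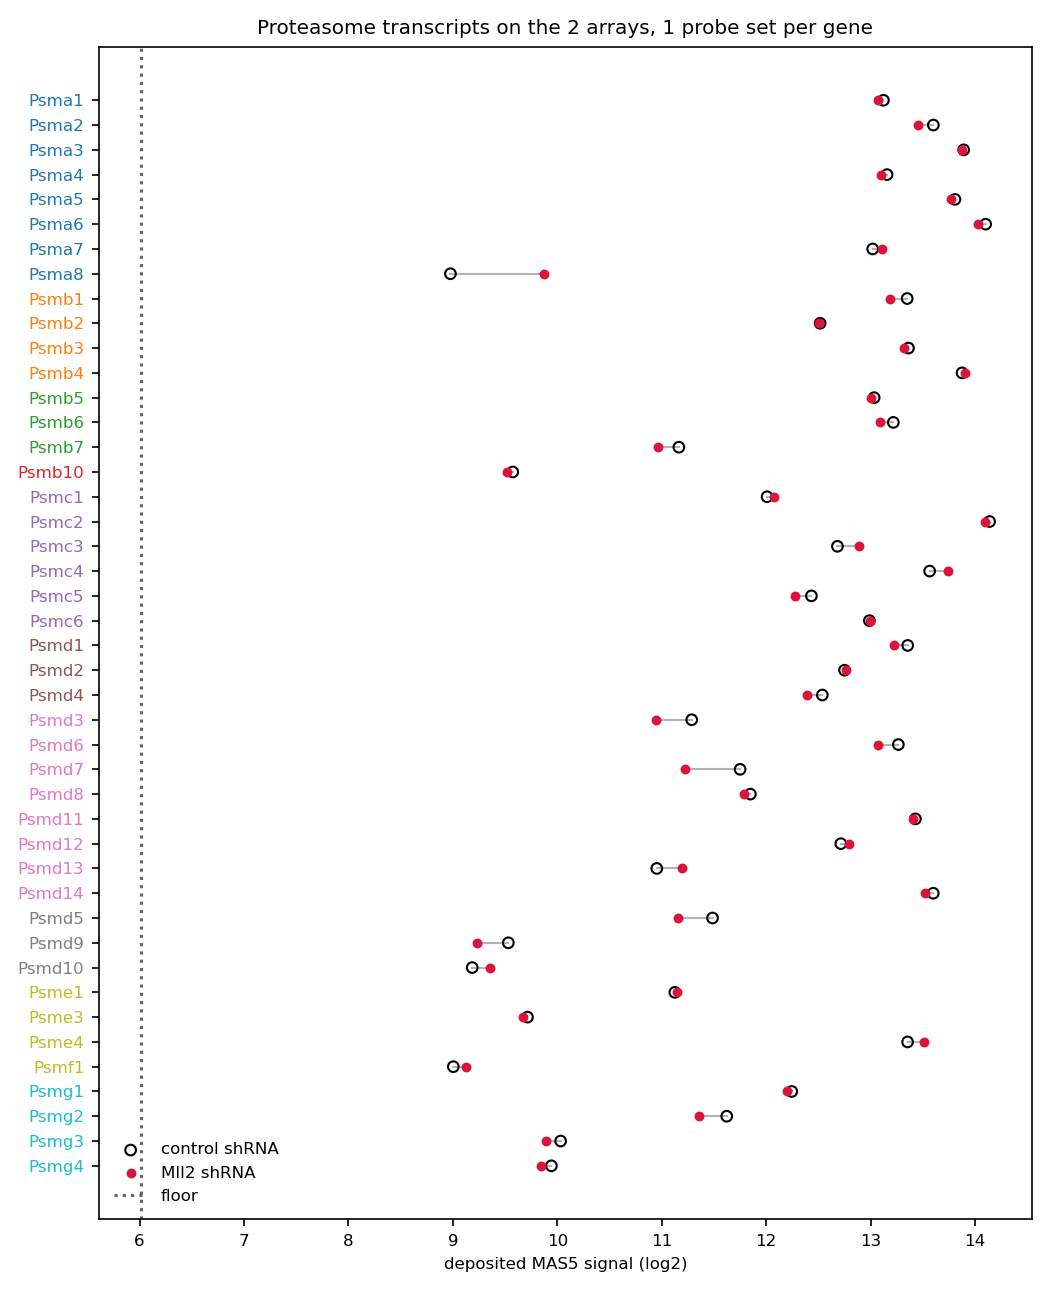
Deposited MAS5 signal on the log2 scale (horizontal axis) of the 44 measured members, 1 probe set per gene, in the Mll2 shRNA array (filled) and the control shRNA array (open), with the floor as a dotted line. In most genes both symbols nearly coincide, and the widest gaps are those of Psma8 and Psmd7. Signals of different probe sets are not comparable with each other.

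Promoter sequences were then examined as a feature that the choice of genes did not use. RefSeq promoters of GRCm38.p6 were matched by symbol for 37 of the 45 members, and the 250 bases before the start were searched on both strands for 4 motifs. The members without a matched promoter were Psma8, Psmb1, Psmb2, Psmb7, Psmc3, Psmd3, Psmd7 and Psmg2. CCGGAAG, the core of sites bound by ETS transcription factors, was in 12 of 37 members (32.4%). It was in 7.83% of all 27025 genes with a promoter and in 21% of the 1576 such genes in the members' middle level range. GGGCGG, the GC box, was in 20 members (54.1%), against 35.4% of all genes and 68.6% in the middle level range. CCAAT, bound by NF-Y, was in 13 members (35.1%), against 37.5% and 40.2%. TGACNNNGC, the core of the antioxidant response element through which Nfe2l1 and Nfe2l2 act, was in 5 members (13.5%), against 11.5% and 15%. These matches are letters in a window and not shown to be sites.

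The 5 members with TGACNNNGC were Psmb5, Psmb6, Psmc6, Psmd9 and Psmd12. Their ratios ran from -0.30 to 0.08 with a median of -0.03, and the 31 measured members with a promoter lacking it had a median of -0.05. For the 12 members with CCGGAAG the median was -0.03, and for the 24 without it -0.05. The ranges with and without each motif overlapped. The promoters of 4 of the 5 genes with TGACNNNGC are shown, since that element ties proteasome genes to Nfe2l1, together with that of Psme4, whose CCGGAAG overlaps a GC box and whose probe sets were all higher in the Mll2 shRNA array as deposited. Each is the 250 bases before the start, 5′ to 3′ on the strand of the gene, with matches to the 4 motifs in capitals.
Psmb5 (chr14:54617996-54618245, minus strand): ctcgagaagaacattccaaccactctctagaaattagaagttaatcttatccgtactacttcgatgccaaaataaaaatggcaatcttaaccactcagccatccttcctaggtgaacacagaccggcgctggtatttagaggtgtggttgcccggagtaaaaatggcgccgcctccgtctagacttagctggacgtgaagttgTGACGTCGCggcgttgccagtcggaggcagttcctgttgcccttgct
Psmb6 (chr11:70525107-70525356, plus strand): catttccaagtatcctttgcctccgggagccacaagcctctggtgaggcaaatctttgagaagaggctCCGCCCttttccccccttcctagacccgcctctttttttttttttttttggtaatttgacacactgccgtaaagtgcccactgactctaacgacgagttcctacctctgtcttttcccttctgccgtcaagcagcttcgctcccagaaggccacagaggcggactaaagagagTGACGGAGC
Psmc6 (chr14:45329574-45329823, plus strand): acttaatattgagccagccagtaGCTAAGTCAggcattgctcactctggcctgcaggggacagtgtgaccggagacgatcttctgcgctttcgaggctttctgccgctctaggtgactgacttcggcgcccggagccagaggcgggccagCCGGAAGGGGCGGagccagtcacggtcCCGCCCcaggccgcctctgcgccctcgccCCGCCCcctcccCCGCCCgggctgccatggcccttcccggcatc
Psmd12 (chr11:107479278-107479527, plus strand): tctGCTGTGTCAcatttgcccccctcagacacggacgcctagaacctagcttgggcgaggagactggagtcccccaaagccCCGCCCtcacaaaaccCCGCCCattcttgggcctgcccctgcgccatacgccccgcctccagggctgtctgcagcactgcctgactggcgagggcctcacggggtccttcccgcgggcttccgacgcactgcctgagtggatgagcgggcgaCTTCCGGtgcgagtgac
Psme4 (chr11:30771525-30771774, plus strand): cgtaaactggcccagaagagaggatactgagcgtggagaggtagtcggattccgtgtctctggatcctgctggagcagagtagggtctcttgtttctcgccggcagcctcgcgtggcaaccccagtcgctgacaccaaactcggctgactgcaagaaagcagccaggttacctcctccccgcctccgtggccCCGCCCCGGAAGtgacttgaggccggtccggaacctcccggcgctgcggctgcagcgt
In Psmb5 the capitals are a single TGACNNNGC match that begins 47 bases before the start, and in Psmb6 such a match begins 9 bases before it. In Psmc6 and Psmd12 the match lies on the other strand, 227 and 247 bases before the start, and GC boxes (4 in Psmc6, 2 in Psmd12) and 1 CCGGAAG lie nearer to it.

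The ATPases of the base differed in direction among themselves. Psmc3 read 7567 with the Mll2 shRNA and 6575 in the control, a ratio of 0.20, just past its spread of 0.20. Psmc5 read 4971 and 5532, a ratio of -0.15. Psmc1, Psmc2 and Psmc6 had ratios of 0.06, -0.05 and 0.005, and the other Psmc6 probe sets gave 0.15 and 0.16. Psmc4 was read differently by its probe sets: 1416290_a_at gave 13683 and 12125, a ratio of 0.17, whereas 1416291_at gave 3553 and 5495, a ratio of -0.63. Both are bright, so the direction of Psmc4 could not be settled. The median of the 6 ATPases was 0.03. It was 0.07 after quantile normalization, 0.08 after loess and 0.15 with spike-in scaling.

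The non-ATPase subunits of the base had a median ratio of -0.13 as deposited. It was -0.08 after quantile normalization, -0.07 after loess and -0.02 with spike-in scaling. Psmd1 and Psmd2 are the large scaffold subunits, and Psmd2 read 6952 and 6891, a ratio of 0.01. Psmd1 read 9560 and 10483, a ratio of -0.13. Psmd4, a receptor for ubiquitin chains, read 5383 and 5947, a ratio of -0.14, with -0.10 in its second measured probe set. All 3 were within their spread.

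The lid held the lowest ratio of all members. Psmd7, the partner of the deubiquitinase Psmd14, read 2389 with the Mll2 shRNA and 3446 in the control. Its ratio was -0.53, or 1.44-fold lower, 2.30 times the spread of 0.23 at its level, and 12 of its 500 nearest neighbours in level had a lower one. Psmd7 was the lowest of the 44 measured members, so this rank is that of an extreme picked from them. Its second measured probe set, 1432820_at, went the other way, with 282 and 234, a ratio of 0.27. The mean over both was -0.13 ± 0.56 (SD over 2 probe sets), so the lower reading of Psmd7 rests on a single probe set. Psmd14 itself, the subunit that cuts ubiquitin chains off the substrate, read 11718 and 12419, a ratio of -0.08.

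Psmd3, a structural lid subunit, read 1977 and 2499, a ratio of -0.34 with a spread of 0.29. Psmd6 read 8615 and 9851, a ratio of -0.19, and its second probe set gave -0.27. Psmd13 had the highest ratio of the lid. It read 2340 and 1982, a ratio of 0.24, and its 3 other probe sets gave 0.28, 1.21 and 0.22, all higher in the Mll2 shRNA array. The value of 1.21 came from probe set 1447843_at, with 191 and 82.6, and was the only ratio of 2-fold or more among the 83 member probe sets that cleared the floor in both groups, where 1.9% of 18509 such probe sets reached it. Psmd8, Psmd11 and Psmd12 had ratios of -0.07, -0.02 and 0.08, and the 4 other Psmd11 probe sets that cleared the floor in both groups ran from -0.17 to 0.03.

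**Figure D4:**
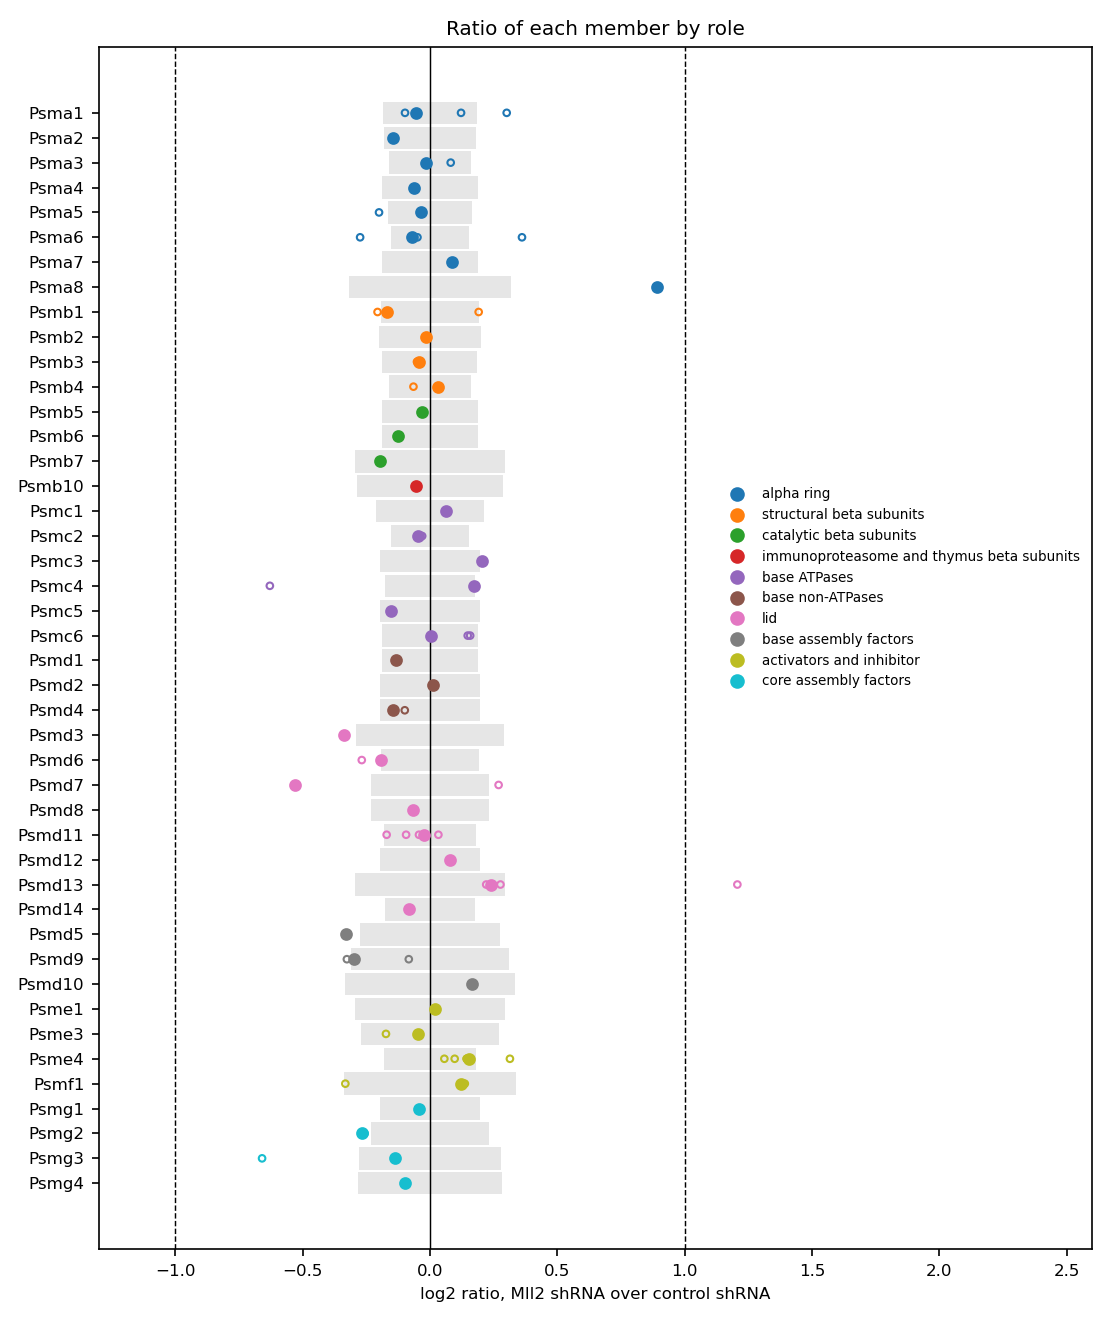
Log2 ratio of Mll2 shRNA over control shRNA (horizontal axis) for each measured member, coloured by role. Filled points are the representative probe sets, open points the other probe sets that cleared the floor in both groups, grey bars the spread at the level of the gene on either side of 0, and dashed lines mark 2-fold. Psma8 and Psmd7 lie farthest outside their bars. The open points show how far probe sets differ in direction in Psma6, Psmc4 and Psmd7, and in size in Psmd13 and Psmg3.

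Assembly factors of the base and the core were mostly lower as deposited. Of the base factors, Psmd5 read 2285 and 2869, a ratio of -0.33 with a spread of 0.27. Psmd9 read 602 and 740, a ratio of -0.30, and its other probe sets gave -0.33 and -0.08. Psmd10, also called gankyrin, went the other way with 653 and 582, a ratio of 0.17. The ratios of Psmd5 and Psmd9 stayed below 0 after median centring, quantile normalization, loess and spike-in scaling, the last giving -0.21 and -0.18. Psmd5 has 1 probe set, and other floors and probe set averaging left its ratio at -0.33. Those alternatives are therefore no check of Psmd5.

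The core assembly chaperones Psmg1 to Psmg4, which guide the formation of the alpha ring, all had ratios below 0 as deposited. Of all measured genes 46.5% did, of the other genes in the members' middle level range 53%, and of the measured members 68.2%. Psmg2 read 2621 and 3153, a ratio of -0.27 with a spread of 0.23, and its second measured probe set gave -0.26. Psmg1 read 4713 and 4855, a ratio of -0.04. Psmg3 had a ratio of -0.14 and -0.66 in its second probe set, which read only 78.7 and 124, and Psmg4 had a ratio of -0.10. The median of the 4 was -0.12. It was -0.16 after quantile normalization and -0.15 after loess, with all 4 below 0 in both. With spike-in scaling it was -0.0009, and 2 of the 4 were below 0. That scaling raised the median of all measured genes from 0.03 to 0.14.

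Of the alternative activators, Psme4, which encodes PA200, a monomeric cap of the core, was the most consistently read. It read 11657 with the Mll2 shRNA and 10474 in the control, a ratio of 0.15. All 6 probe sets were higher in the Mll2 shRNA array, with ratios from 0.06 to 0.31 and a mean of 0.15 ± 0.09 (SD over 6 probe sets), still within the spread of 0.18 at its level. Probe sets of a gene were read on the same arrays and can share sequence, so their likeness says nothing of variation between cultures. Psme1, part of the interferon-inducible activator PA28, had a ratio of 0.02, and Psme3, the nuclear form of PA28, -0.05, with 813 and 840. Psme2 is no member, as the probe set that names it also names Psme2b. That probe set read 1748 with the Mll2 shRNA and 1967 in the control, a ratio of -0.17. Psmf1, the inhibitor PI31, had a ratio of 0.12, and its other probe sets that cleared the floor in both groups gave -0.33 and 0.14.

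For 22 members at least 2 probe sets cleared the floor on both arrays, and the brightest and the second had ratios of the same sign in 15 (68.2%). The share was 66.1% over 4713 such genes on the array. The difference between these probe sets had an SD of 0.32 in the members and 0.37 over all such genes. Of these 22 members only Psmd7 had a ratio larger in size than the SD of 0.32.

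Other genes of the pathway were read from 4 lists. Of 14 proteasome-bound and shuttle proteins 11 were measured, 6 above and 5 below 0, with none at 1.5-fold and a median of 0.05. When probe sets were averaged the median was -0.05, and Ube3c went from -0.16 to -0.59, past 1.5-fold. Of the 3 measured Ube3c probe sets only 2 cleared the floor in both groups, and the mean of those 2 was -0.35, short of 1.5-fold. The averaged median was the value of Ecpas, another gene of this list, for which the corresponding mean of 2 probe sets was 0.16. Pomp, the chaperone that carries beta subunits into the nascent core, read 7070 and 8713, a ratio of -0.30 with a spread of 0.19, and -0.18 with spike-in scaling. The ubiquitin receptor Adrm1 had no probe set that named it alone. Of 9 genes for ubiquitin and its activation and extraction 4 were measured, all within their spread. All were below 0, where 46.5% of all measured genes and 68.2% of the measured members were. Their median was -0.15, and it was -0.16 after quantile normalization and after loess and -0.03 with spike-in scaling.

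Of 11 genes for the transcriptional control of the proteasome 10 were measured, 4 above and 6 below 0, and none was 2-fold apart. Nfe2l1 read 1222 and 1275, a ratio of -0.06 that became 0.06 with spike-in scaling. Ngly1, the glycanase that processes Nfe2l1 for activation, read 631 and 421, a ratio of 0.59 with a spread of 0.34. Mafk, a small Maf protein that pairs with Nfe2l1 and Nfe2l2 on DNA, read 286 and 442, a ratio of -0.63 with a spread of 0.35. Each rests on a single probe set. Among 9 genes of the immunoproteasome and antigen processing 7 were measured, 2 above and 5 below 0, and Psmb8 was the only one at 1.5-fold. In these bulk samples, fewer cells that transcribe a gene and less RNA per cell cannot be told apart.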

How the data were processed

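The authors processed the arrays with MAS5, per the submitters' processing notes. MAS5 brings arrays to 1 trimmed mean and computes every probe set by itself. The deposited values are log2 signals for 45101 probe sets. The 2% trimmed mean of their antilogs was 499.8 in each group. The software version is not given in the sources used here, and the number of arrays limits the precision.

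After 64 control probe sets were set aside, 34945 of 45037 had 1 gene symbol, 932 had several and 9160 were not listed. Symbols were updated by Entrez number to RefSeq GRCm38.p6 for 34741. No coordinates of probe sets are given, as the table names no genome build. Floor, representative probe set and ratio are as described above, and 11805 of 18193 named genes were measured. The steps were tested on simulated data.

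Members, role groups and gene lists were chosen with earlier results of these data known. Named were Psmb5, Psmb6, Psmb7, Psmb10, Psmb11, the 6 highest and 6 lowest members, the extremes of each role group, members whose probe sets differ in sign by 0.5 or more, companion genes at 1.5-fold, and a few for reference. The remaining members are given by their ratios.

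Alternatives were median centring, quantile normalization, loess, spike-in scaling, a lower (30th percentile) and a higher (70th percentile) floor, none at all, the floor value as a pseudocount, averaging probe sets, omitting IDs that end in _s_at, _x_at or _a_at, symbols without the update, genes above the floor on both arrays, and thresholds of 1.5-fold and 3-fold. Python 3.11.15 with numpy 2.4.6 and pandas 2.3.3 and R 4.3.3 with limma 3.58.1 were used.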

Additional observations from a re-analysis of the deposited data

How the results depend on the processing

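The count of members at least 2-fold higher was 1 in place of 0 with spike-in scaling (Psma8), at a threshold of 1.5-fold (Psma8) and without probe sets with suffixes (Psmd13, at 1.21 in a dim probe set). The count at least 2-fold lower was 1 with no floor and no filter, from Psmb11 below the floor on both arrays, and 0 under the other alternatives. Members below 0 numbered 19 after quantile normalization and 14 with spike-in scaling, against 30 as deposited. Members above 0 numbered 25, 24 and 30 after quantile normalization, loess and spike-in scaling, against 14. The members' median ran from -0.05 to 0.07. Of 1076 values for single genes and role groups under the alternatives, 11 moved by more than the spread used for them. These included Psmc4, which was -0.63 without probe sets with suffixes and -0.23 as a mean over probe sets, Psmd7, which was -0.13 as such a mean, and Psma5 (0.42), Psmb1 (0.19) and Psmf1 (-0.33) without probe sets with suffixes. In Psma5 and Psmb1 a much dimmer probe set then takes the place of a bright one. Another value that moved was that of the companion gene Ube3c, -0.59 as a mean over probe sets against -0.16. The mean for Ube3c was -0.35 over the 2 probe sets that cleared the floor in both groups. No paired analysis was possible because each group has 1 array. Dim probe sets near the floor limit what can be read from Psmb8, Psmb9, Psmb11 and the second probe sets of several members.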
